A study of Mus musculus with 126 samples.

Results

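The response of wild type mouse embryonic stem cells to Trichostatin A (TSA) was measured by RNA-seq in 4 libraries, 2 from cells given TSA and 2 from cells given DMSO. They were chosen by their labels and are all wild type libraries among the 8 RNA-seq libraries and 126 samples of the series. The cells were J1, a single embryonic stem cell line, grown without feeder cells on gelatin in serum with leukaemia inhibitory factor (LIF), and both groups have their DNA methyltransferases intact. TSA was given at a labelled 5 ng/µl for 36 h, and control cells received 0.0033% DMSO, its solvent, for the same time. TKO cells, which lack Dnmt1, Dnmt3a and Dnmt3b, received the same treatments. Their libraries were fitted together with the wild type libraries, so they share in the filter, the scaling and the spread behind the wild type calls. Their levels are used only to class genes by level and where the wild type response was set against theirs. The submitters call the replicates biological, but those of wild type cells all come from 1 line, and p-values measure only the spread between the 8 libraries.

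Histone deacetylases take acetyl groups off the lysines of histone tails and of other proteins. They mostly work within corepressor complexes that DNA-binding repressors bring to promoters and enhancers. TSA binds the zinc in the active site of these enzymes and blocks them reversibly, so acetylation builds up. Embryonic stem cells hold genes of later lineages at low levels with the help of such complexes, while a network around Oct4 (Pou5f1), Sox2 and Nanog maintains self-renewal. The sequencing counted RNA from whole cultures, so a change in the number of cells of a kind and a change in RNA per cell cannot be told apart in any result that follows.

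Total counts of the 4 libraries lay between 13280631 and 15335733. Levels are normalised CPM, the counts of a gene scaled to a common library total, after each total was multiplied by a factor for composition. That factor was 0.9382 and 0.9293 in the DMSO libraries and 1.0683 and 1.0834 in the TSA libraries, so it differed by treatment. Of 23420 genes in the table, 14165 and 14060 had 10 counts or more with DMSO, against 15282 and 15332 with TSA. The 8 stem cell markers all lay above 3 counts in every library and summed to 3329 and 3729 CPM with DMSO and to 2133 and 1898 CPM with TSA. The 6 trophoblast markers summed to 18.8 and 18.2 CPM with DMSO and to 80.3 and 85.0 CPM with TSA. Among them, the placental marker Tpbpa was at most at 3 counts in all 4 libraries. Fibroblast or feeder markers summed to 77.9 to 106 CPM over the 4 libraries. Whether other cell types took part in the changes described here was not tested beyond these values.

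About as many genes were higher as lower with TSA. With a gene called at an adjusted p below 0.05 in edgeR's quasi-likelihood test, 8358 of 15822 tested genes were called, which is 52.8%. Other fits called 7466 of 15148 genes (wild type libraries alone), 7120 of 15822 (DESeq2) and 5780 of 16204 (without TSA replicate 2). Of the 8358, 4266 (27%) were higher with TSA and 4092 (25.9%) were lower. Large increases outnumbered large decreases, since 2498 genes (15.8%) rose by 2-fold or more and 798 (5.04%) fell by as much. The median log2 fold change over all tested genes was 0.01. The balance rests on the composition factor. Scaled by total counts alone, the same test called 5812 increases and 2433 decreases, with a median over tested genes of 0.22. Many of the counts of lower genes in the lists depend on this choice, and the counts from total-count scaling are given for lists with 5 or more lower genes where they moved by more than 1.5 times, and for some other lists.

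**Figure D1:**
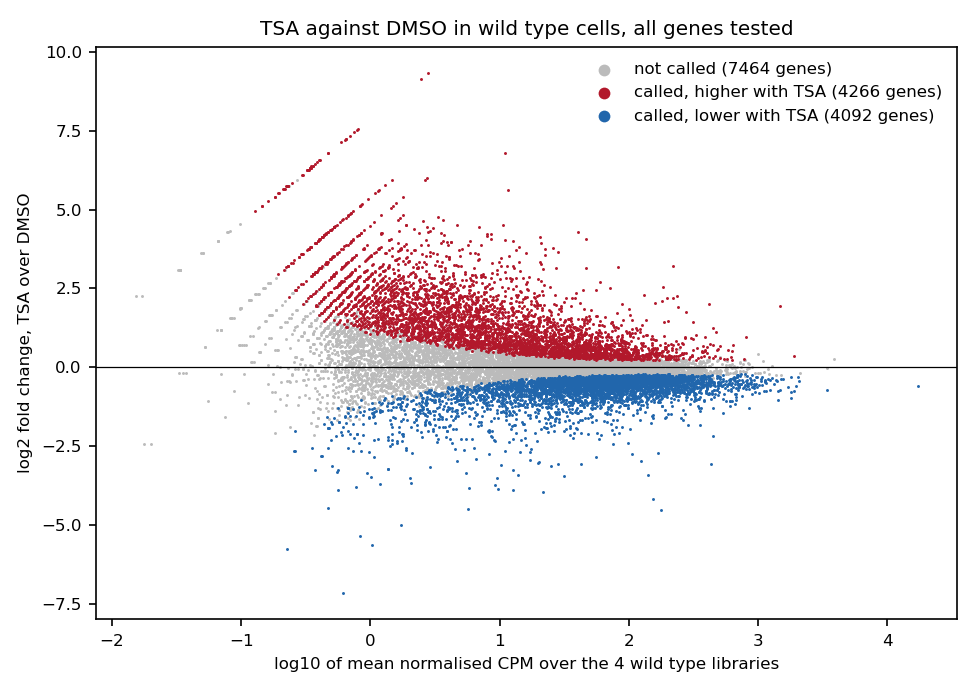
Log2 fold change of TSA over DMSO in wild type cells (vertical) against the mean normalised CPM over the 4 wild type libraries (horizontal, log10). Each point is 1 tested gene with a count in those libraries, coloured by its call. Large increases lie mostly at low levels and decreases mostly at high levels.

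Among low genes increases outnumbered decreases, and among high genes the reverse held. To keep the level apart from the comparison itself, tested genes with more than 3 counts in either TKO DMSO library, which is no part of the wild type contrast, were split into 4 classes of equal size by their CPM per kilobase of exon there. In the lowest class, up to 1.55 CPM per kilobase, 46.9% of genes rose and 5.07% fell, with a median log2 fold change of 0.93. In the highest class, from 26.7 CPM per kilobase, 7.86% rose and 52.7% fell, with a median of -0.31. The classes between them were intermediate, with 30.7% and 17.3% rising and 16.4% and 32.3% falling. Some genes of the lowest class passed the filter on low counts through their TSA libraries, which favours calls of an increase there. The gene lists that follow were not matched for level. Their shares are to be read against these classes and against 27% higher and 25.9% lower over all tested genes.

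**Figure D2:**
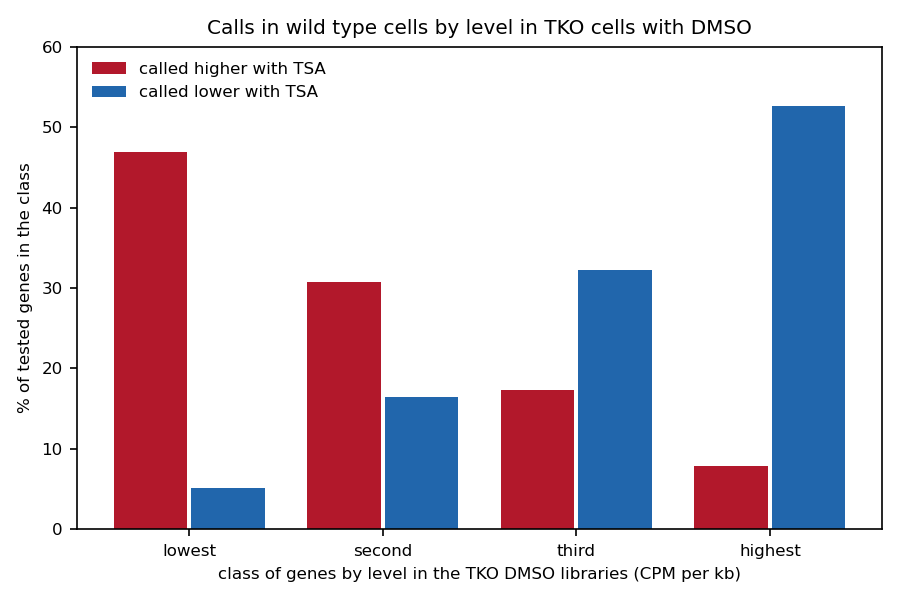
Percent of tested genes called higher (red) or lower (blue) with TSA in wild type cells, for 4 equal classes of genes ranked by CPM per kilobase in the TKO DMSO libraries. The share called higher falls from 46.9% to 7.86% and the share called lower rises from 5.07% to 52.7% across the classes.

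At the edge of detection the difference in direction was wider. There were 271 genes with at most 3 counts in each DMSO library and 10 or more in both TSA libraries, against 11 genes with the opposite pattern. By their definition these genes differ, so the numbers are a description. Gene length followed the calls only weakly, with 21.2% of the shortest and 30.3% of the longest of 4 equal classes by exon length called higher.

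Of the lists described, the highest median was that of genes of the 2-cell-like state, a rare and transient state of stem cell cultures in which genes of the early embryo are read, among them the Zscan4 family of telomere-associated zinc finger proteins and targets of the homeodomain factor Dux. Of 26 listed genes 24 were in the table and 23 passed the filter, and all 23 were called higher with TSA. Only 14 of the 23 had more than 3 counts in both DMSO libraries, and the others passed the filter through libraries where they were high. The median log2 fold change was 3.62, against 0.01 over all genes, and the summed level was 27.1 and 30.6 CPM with DMSO and 281 and 517 CPM with TSA.

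The Zscan4 copies lie together on chromosome 7. The 250 bases before the annotated starts of the 3 with the largest fold changes among them are shown, because nearly identical copies moved together. They come from RefSeq on GRCm38.p6, the assembly also known as mm10, at chr7:11005495-11005744 on the plus strand for Zscan4c, chr7:11166149-11166398 on the minus strand for Zscan4d and chr7:11397665-11397914 on the plus strand for Zscan4f, each written 5′ to 3′ along its gene.
Zscan4c: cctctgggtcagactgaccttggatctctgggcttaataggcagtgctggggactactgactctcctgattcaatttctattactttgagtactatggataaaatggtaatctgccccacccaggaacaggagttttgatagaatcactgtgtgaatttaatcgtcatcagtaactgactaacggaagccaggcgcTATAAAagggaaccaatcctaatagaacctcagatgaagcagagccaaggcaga
Zscan4d: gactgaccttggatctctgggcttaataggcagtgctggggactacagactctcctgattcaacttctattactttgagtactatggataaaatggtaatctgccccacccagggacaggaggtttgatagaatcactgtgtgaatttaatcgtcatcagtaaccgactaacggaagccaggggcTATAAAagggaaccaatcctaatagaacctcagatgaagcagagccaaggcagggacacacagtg
Zscan4f: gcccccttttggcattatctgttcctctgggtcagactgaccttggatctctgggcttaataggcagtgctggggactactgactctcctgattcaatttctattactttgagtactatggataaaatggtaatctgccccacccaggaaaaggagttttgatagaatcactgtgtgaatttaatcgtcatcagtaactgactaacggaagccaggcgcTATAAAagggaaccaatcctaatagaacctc
Capitals mark TATAAA, a match to the core of the TATA box, whose first base lies 54, 65 and 31 bases before the annotated start in Zscan4c, Zscan4d and Zscan4f. Once aligned on that match, Zscan4c and Zscan4f differed at 1 of 227 compared bases, Zscan4c and Zscan4d at 7 of 239. TATAAA on either strand occurs in 13.6% of the 32851 RefSeq promoter windows of 300 bases, and a match is no evidence of use. Reads from such similar genes can be shared between copies, and how the counting treated them is not given in the sources used here, so the family is more certain than its single members.

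Zscan4d had 5.85 and 4.62 CPM in the DMSO libraries and 65.5 and 109 CPM in the TSA libraries. Zscan4f had 0.499 and 0.729 CPM with DMSO and 10.7 and 15.9 CPM with TSA. The increase was 16.7-fold for Zscan4d (log2 4.05, SE 0.25, edgeR adjusted p = 3.8e-06) and 21.7-fold for Zscan4f (log2 4.43, SE 0.39, edgeR adjusted p = 1.7e-05). Zscan4c went from 2.64 and 3.65 CPM to 29.1 and 54.3 CPM, a log2 fold change of 3.73. The deubiquitinase gene Usp17le went from 2.07 and 2.35 CPM to 28.2 and 50.1 CPM (edgeR adjusted p = 1.6e-05). Dux had 2 counts in each DMSO library and 39 and 72 counts in the TSA libraries, so no fold is given for it (edgeR adjusted p = 0.00011). All 23 genes were higher in TSA replicate 2 than in TSA replicate 1, with a median log2 ratio of 0.90 between the 2 libraries. The DMSO libraries showed no such order, with 11 genes higher in replicate 1 and 12 in replicate 2. The median log2 fold change was 4.01 without TSA replicate 1 and 3.10 without TSA replicate 2. Both TSA libraries lay above both DMSO libraries for all 23 genes. Over all 15822 tested genes they lay above them for 6262 and below them for 5919, so a lack of overlap was common.

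Outside that list, the named increases included genes of several tissues. Oas1e, a member of the oligoadenylate synthetase family (chromosome 5, 120786312 to 120795530, mm10), had 0.214 and 0.729 CPM with DMSO and 14.2 and 31.6 CPM with TSA, a log2 fold change of 5.62 (SE 0.60, edgeR adjusted p = 4.8e-05). Myh11, the smooth muscle myosin heavy chain, went from 0.713 and 0.972 CPM to 13.9 and 16.1 CPM. The transporter gene Abcb5 went from 0.785 and 1.13 CPM to 11.9 and 20.6 CPM. Each was low in both DMSO libraries and clearly detected in both TSA libraries. Arg2, encoding mitochondrial arginase (log2 4.00), Tmem92, a transmembrane protein gene (4.02), and Calb1, the calcium buffer calbindin (3.99), rose by similar amounts. For Arg2, 20% of the exon length overlaps another gene, so its reads are less certain.

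In CPM, which are not corrected for gene length, the largest increases were in genes that were already well expressed. Peg10, a retrotransposon-derived imprinted gene needed in the placenta, had 660 and 558 CPM with DMSO and 2191 and 2505 CPM with TSA. Tex19.1, a germ cell gene that restrains retrotransposons, had 148 and 182 CPM with DMSO and 574 and 764 CPM with TSA. Trp53inp1, a p53-induced nuclear protein, had 523 and 573 CPM with DMSO and 965 and 1154 CPM with TSA. In each of the 3 genes the groups stood clearly apart. Txnip, the thioredoxin-interacting protein, rose from 243 and 295 CPM to 583 and 683 CPM. The glucose transporter gene Slc2a3 rose less, from 1767 and 1569 CPM to 2234 and 2042 CPM (log2 0.36, edgeR adjusted p = 0.018), and its call was lost without DMSO replicate 2 or TSA replicate 1 (edgeR adjusted p = 0.106 and 0.115). The largest decreases in CPM were in Rn45s, the ribosomal RNA precursor, from 21558 and 19951 CPM to 14026 and 13223 CPM, in the chaperone Hsp90ab1, from 4189 and 4297 to 2594 and 2502 CPM, and in Tubb5, Nedd4 and Trim28, a tubulin, a ubiquitin ligase and the corepressor of KRAB zinc finger proteins. Ribosomal RNA was depleted from the libraries, so the Rn45s level also depends on that step.

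Factors of the stem cell network were mostly lower. Of 16 core pluripotency factors, all tested, 11 were lower (8 when scaled by total counts alone), with a median log2 fold change of -0.66. Pou5f1 (chromosome 17, 35506032 to 35510777, mm10) had 935 and 890 CPM with DMSO and 456 and 361 CPM with TSA. The 2 groups did not overlap, and the decrease was 2.23-fold (log2 -1.16, SE 0.14, edgeR adjusted p = 7.6e-05). Nanog had 237 and 265 CPM with DMSO and 185 and 190 CPM with TSA (log2 -0.42, edgeR adjusted p = 0.013). Its call was lost without DMSO replicate 2 or TSA replicate 1 (edgeR adjusted p = 0.065 and 0.057), and when scaled by total counts alone (0.16). Sox2 had 359 and 436 CPM with DMSO and 311 and 329 CPM with TSA and missed the threshold (log2 -0.31, edgeR adjusted p = 0.055), but was called without DMSO replicate 1 (edgeR adjusted p = 0.019). The strongest decrease of the list was in Foxd3, a repressor of differentiation genes, from 25.8 and 24.5 CPM to 2.75 and 1.97 CPM, 10.7-fold lower. Utf1, Zscan10, Lin28a and L1td1 also fell, with log2 fold changes of -1.30, -1.42, -1.08 and -1.22.

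Factors of the naive state, which marks the cells of the early epiblast, had a lower median. Of 20 such genes, 16 were lower and 1 was higher (14 and 2 when scaled by total counts alone), with a median log2 fold change of -1.16. Jam2, an adhesion molecule, had 97.9 ± 21.3 CPM (SD, n = 2) with DMSO and 13.5 ± 0.80 CPM (SD, n = 2) with TSA. Fgf4, the growth factor that stem cells make for themselves, had 147 and 219 CPM with DMSO and 30.9 and 23.4 CPM with TSA. Both sat several-fold lower in each TSA library, by 7.23-fold and 6.73-fold (edgeR adjusted p = 2.3e-06 and 8.2e-06). The nuclear receptor genes Nr0b1, Nr5a2 and Esrrb fell by 2.10, 2.10 and 1.49 on the log2 scale, and the Krüppel-like factor genes Klf2 and Klf4 by 1.20 and 0.83. Tfcp2l1, a target of LIF signalling, fell by only 0.55, from 457 and 428 CPM to 311 and 294 CPM. Dppa3, a maternal factor that is also high in germ cells, was the exception and rose from 21.3 and 28.5 CPM to 62.1 and 78.4 CPM (2.82-fold, edgeR adjusted p = 0.00048).

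Genes that mark the exit toward the primed state were also mostly lower. Of 16 formative and primed genes, 10 were lower and 1 was higher (7 and 1 when scaled by total counts alone), with a median log2 fold change of -0.66. Zic2, a zinc finger factor of the primed state, had 36.8 and 45.0 CPM with DMSO and 2.50 and 2.78 CPM with TSA. That is 15.5-fold lower (edgeR adjusted p = 1.5e-06), and its neighbour Zic5 fell by 2.67 on the log2 scale. Otx2, a factor of the epiblast and the anterior brain, went from 43.2 and 44.2 CPM to 28.5 and 26.9 CPM, and Sall2 from 47.6 and 33.5 CPM to 14.6 and 11.5 CPM. LIF signalling changed less. The receptor gene Lifr fell from 186 and 220 CPM to 115 and 115 CPM, while the kinase gene Jak2 and the feedback inhibitor gene Socs3 rose by 1.00 and 0.60 on the log2 scale.

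**Figure D3:**
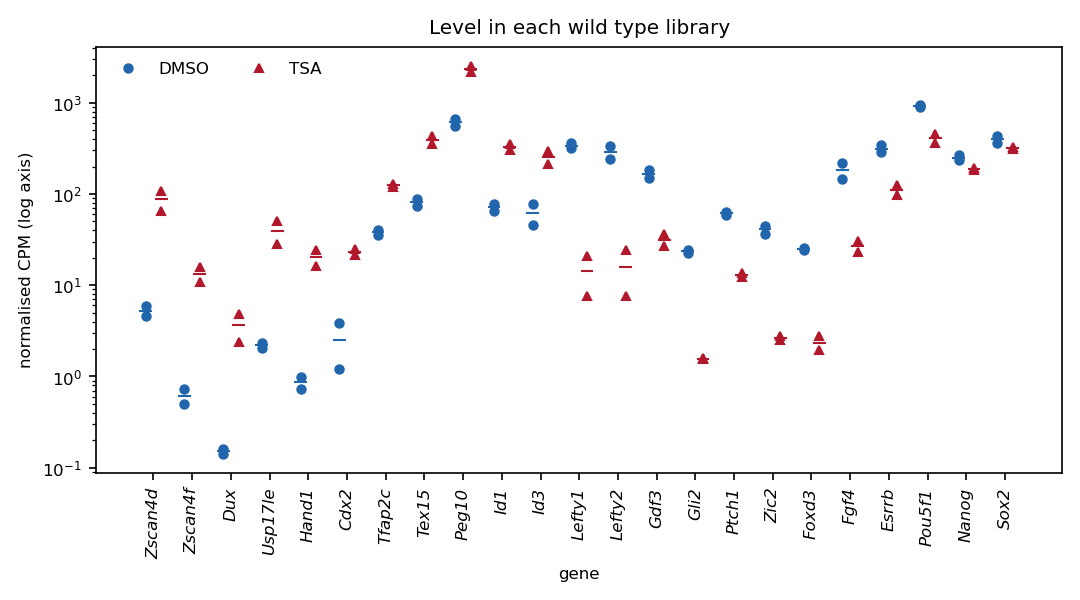
Normalised CPM (log axis) of 23 genes in each wild type library, DMSO as blue circles and TSA as red triangles, with a short line at the mean of 2 libraries. The genes run from those of the 2-cell-like state through lineage, BMP and Nodal genes to pluripotency factors, and only for Sox2 and Nanog do the groups lie close together.

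In the TGF-beta family, the Nodal pathway list had more decreases than increases and the BMP and Id list more increases than decreases. The ligand genes Nodal and Bmp4 themselves were both called higher. Nodal signals through activin receptors and Smad2 and Smad3 and induces its own inhibitors, the Lefty proteins. BMPs signal through Smad1 and Smad5 and induce the Id genes, which block neural differentiation factors. Of 22 Nodal pathway genes 20 were tested, and 10 were lower and 2 were higher (9 and 6 when scaled by total counts alone). Of 27 BMP and Id pathway genes 25 were tested, and 15 were higher and 1 was lower, with medians of -0.40 and 0.92 on the log2 scale.

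Among Nodal targets, Lefty1 (chromosome 1, 180935039 to 180938401, mm10) had 358 and 316 CPM with DMSO and 21.2 and 7.67 CPM with TSA. Its neighbour Lefty2 had 243 and 338 CPM with DMSO and 24.1 and 7.54 CPM with TSA. The TSA libraries lay far below the DMSO libraries but differed by about 3-fold between themselves, TSA replicate 2 being the lower in both genes. The 2 genes are close copies and may share reads. Inhbb, an activin subunit gene, went from 7.06 and 14.4 CPM to 0.671 and 0.815 CPM. The ligand gene Gdf3 went from 184 and 149 CPM to 36.1 and 26.7 CPM, and the partner of Smad proteins Foxh1 from 83.9 and 69.3 CPM to 27.0 and 24.7 CPM. The coreceptor gene Tdgf1 fell less, from 625 and 763 CPM to 390 and 381 CPM. The ligand gene Nodal itself did not fall, with 94.3 and 78.6 CPM under DMSO and 109 and 122 CPM under TSA. That increase was called (log2 0.42, edgeR adjusted p = 0.025) but not without DMSO replicate 2 or TSA replicate 2 (edgeR adjusted p = 0.16 and 0.14). Acvr1c, a Nodal receptor gene, was at 0 counts in both DMSO libraries and at 0.794 and 2.38 CPM with TSA, which is at least 6.94-fold higher against a floor of 3 counts per library.

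On the BMP side, Id1 (chromosome 2, 152736274 to 152737410, mm10) had 76.8 and 65.9 CPM with DMSO and 302 and 349 CPM with TSA. Id3 had 77.2 and 46.3 CPM with DMSO and 216 and 293 CPM with TSA. Both rose by about 4-fold without overlap (log2 2.19 and 2.04, edgeR adjusted p = 1.2e-05 and 3.8e-05), and Id2 rose by 0.97 on the log2 scale. The homeobox genes Msx1 and Msx2, which BMPs induce, went from 2.50 and 0.972 CPM to 14.5 and 21.7 CPM and from 3.64 and 2.84 CPM to 12.1 and 16.2 CPM. For Msx1, 59% of the exon length overlaps another gene. The ligand gene Bmp4 rose from 24.5 and 21.1 CPM to 49.4 and 45.4 CPM, and the inhibitory Smad6, a feedback gene of the pathway, from 8.49 and 8.18 CPM to 23.6 and 24.6 CPM. Smad1, which carries the signal, fell from 40.0 and 42.5 CPM to 30.0 and 27.2 CPM.

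Hedgehog pathway genes went both ways, with 4 higher and 6 lower of 16 tested (6 and 6 when scaled by total counts alone, 2 and 6 without DMSO replicate 2 or without TSA replicate 2). The called shares were 25% higher and 37.5% lower, against 27% and 25.9% of all tested genes. Hedgehog ligands relieve the receptor Patched (Ptch1) from holding back Smoothened (Smo), and Gli factors then activate targets that include Gli1, Ptch1 and Hhip. Gli2 had 22.8 and 24.4 CPM with DMSO and 1.59 and 1.56 CPM with TSA, 15.0-fold lower (edgeR adjusted p = 2.3e-06). Ptch1 had 63.9 and 59.0 CPM with DMSO and 13.6 and 12.2 CPM with TSA. Gli1, Hhip and Smo fell, with log2 fold changes of -1.49, -2.22 and -0.71. Gli3 was not called (log2 0.31, edgeR adjusted p = 0.10) but was when scaled by total counts alone or without DMSO replicate 1 (log2 0.51 and 0.48, edgeR adjusted p = 0.014 and 0.040), and Cdon, a coreceptor gene, rose from 45.9 and 45.7 CPM to 89.2 and 90.7 CPM.

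Retinoic acid genes changed at several steps of the pathway. Of 21 genes, 10 were higher and 4 were lower, with a median log2 fold change of 0.97. The shares were 47.6% and 19%, against 27% and 25.9% of all tested genes. In the lowest level class they were 46.9% and 5.07%, with a median of 0.93, so the share higher and the median lie near that class. The 3 retinaldehyde dehydrogenase genes, whose enzymes make retinoic acid, all rose. Aldh1a2 had 4.78 CPM in both DMSO libraries and 22.5 ± 4.92 CPM (SD, n = 2) with TSA, Aldh1a3 went from 2.71 and 1.78 CPM to 14.9 and 11.5 CPM, and Aldh1a1 from 0.499 and 0.486 CPM to 4.52 and 7.67 CPM. Cyp26a1, which degrades retinoic acid and is induced by it, rose from 2.71 and 1.62 CPM to 6.35 and 10.4 CPM. The receptor genes Rara and Rarg and Dhrs3, whose enzyme lowers retinaldehyde, fell, with log2 fold changes of -1.64, -0.85 and -2.14.

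Wnt pathway genes were mixed, with 16 higher and 12 lower of 53 (22 and 8 when scaled by total counts alone) and a median log2 fold change of 0.04. The 30.2% higher and 22.6% lower lie near the 27% and 25.9% of all tested genes. The secreted antagonist gene Dkk1 rose from 1.28 and 1.22 CPM to 4.52 and 8.49 CPM, and Notum, which inactivates Wnt ligands, fell from 31.8 and 24.9 CPM to 10.9 and 8.62 CPM. The receptor gene Fzd5 fell from 91.7 and 109 CPM to 34.1 and 37.6 CPM. FGF and ERK pathway genes had 9 higher and 11 lower of 33 (13 and 8 when scaled by total counts alone). At 27.3% and 33.3%, the share higher lies near that of all genes. Among genes downstream of FGF, which acts through the kinase ERK, Fos rose (3.50 and 3.81 CPM against 9.89 and 15.2 CPM) and Dusp6 rose (158 and 147 CPM against 249 and 225 CPM), while Etv5 fell (352 and 366 CPM against 258 and 227 CPM). The ligand genes Fgf15 and Fgf17 fell by 2.35 and 2.59 on the log2 scale. Targets of the same kinase thus lay on both sides.

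**Figure D4:**
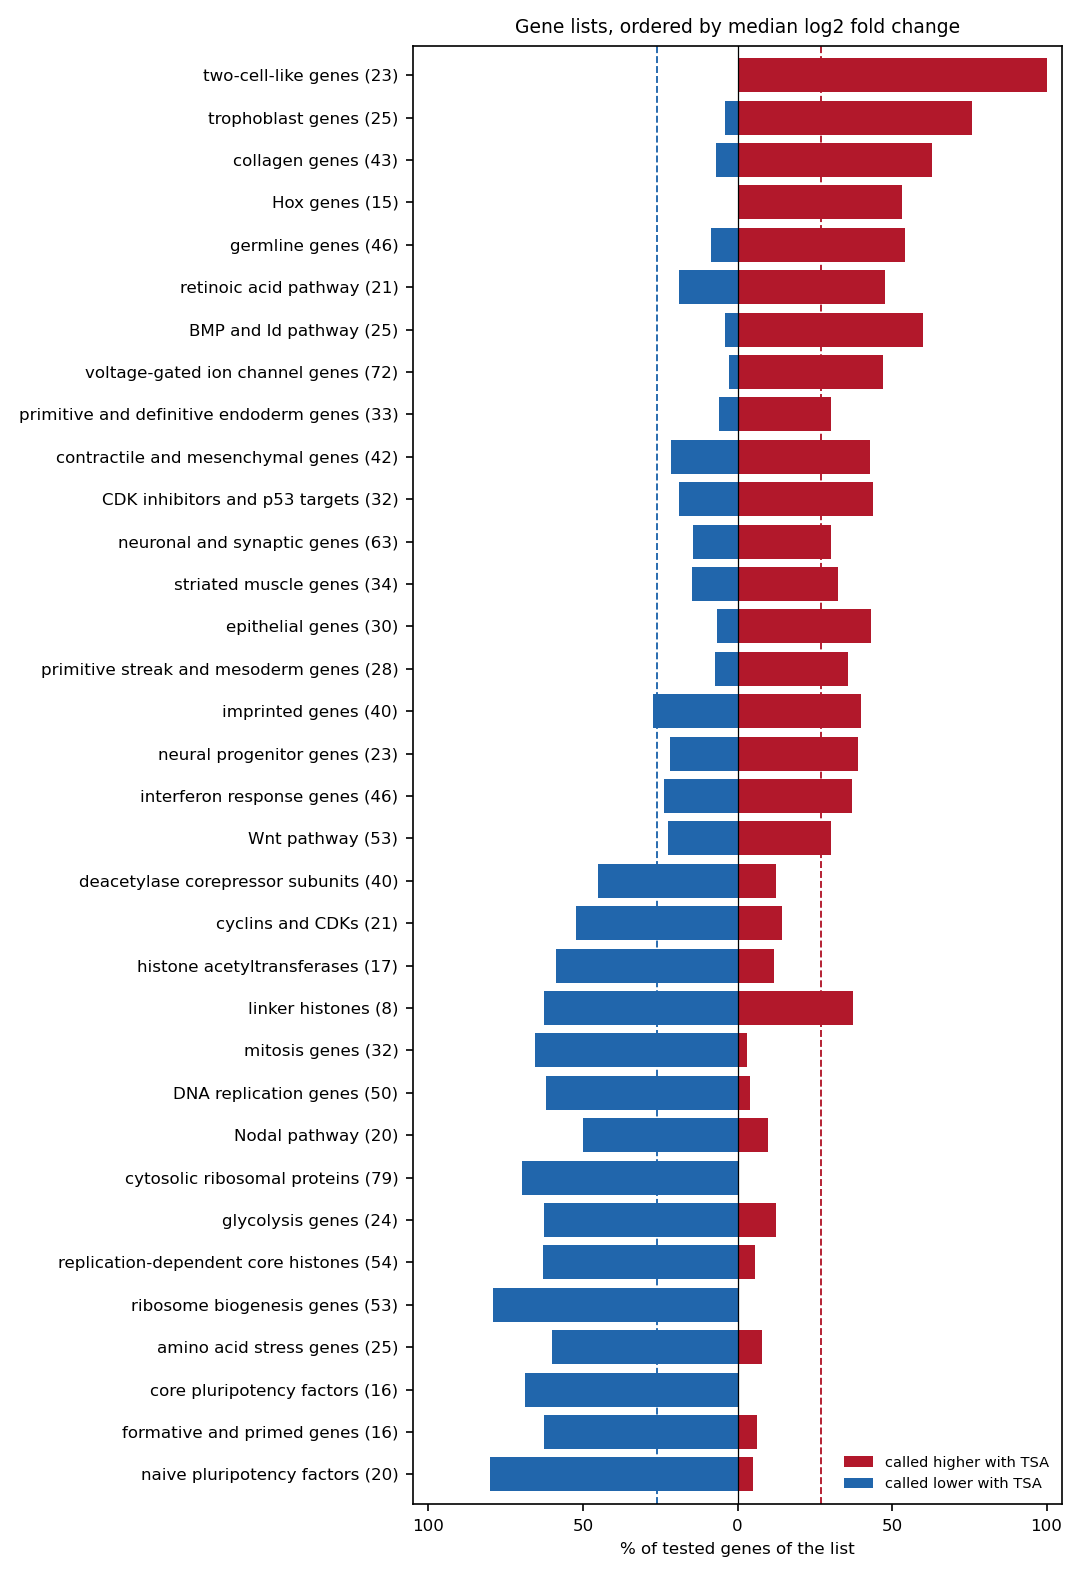
Percent of the tested genes of each list called higher (red, to the right) or lower (blue, to the left) with TSA, for 34 lists ordered by their median log2 fold change, with the number of tested genes in brackets. Dashed lines give the shares over all tested genes, 27% higher and 25.9% lower. Genes of the 2-cell-like state, trophoblast and collagens are at the top, and naive, formative and core pluripotency genes at the bottom.

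Among lineage lists, trophoblast genes stood highest. Trophoblast is the outer layer of the blastocyst, a fate that stem cells rarely take. Of 34 genes 25 were tested, 23 of them with more than 3 counts in both DMSO libraries, and 19 were higher and 1 was lower, with a median log2 fold change of 1.54. Hand1, a factor of giant cells and of mesoderm (chromosome 11, 57828713 to 57832147, mm10), had 0.999 and 0.729 CPM with DMSO and 16.3 and 24.2 CPM with TSA. Cdx2, which specifies trophectoderm, had 3.85 and 1.22 CPM with DMSO and 25.0 and 21.3 CPM with TSA. Tfap2c, which acts with it, had 35.5 and 40.6 CPM with DMSO and 118 and 130 CPM with TSA. These 3 factors rose by 23.4-fold, 9.13-fold and 3.26-fold (edgeR adjusted p = 8e-06, 9.1e-05 and 2.1e-05). Esx1, Gcm1, Gata3 and the keratin genes Krt7 and Krt18 were also higher, Krt18 at 351 and 247 CPM with DMSO and 679 and 622 CPM with TSA. Phlda2, an imprinted gene that restrains placental growth, was the only decrease of the list, from 31.2 and 32.5 CPM to 16.4 and 15.6 CPM. The placental marker Tpbpa stayed at or under 3 counts throughout, and Elf5, which marks trophoblast stem cells, reached only 0.916 and 1.77 CPM with TSA.

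The other lineage lists are read against 27% higher and 25.9% lower over all genes. Primitive streak and mesoderm genes had 10 higher and 2 lower of 28 tested, endoderm genes 10 higher and 2 lower of 33, and epithelial genes 13 higher and 2 lower of 30. These are 35.7%, 30.3% and 43.3% higher, so the endoderm share lies near that of all genes. The streak and mesoderm share lies under the 46.9% of the lowest level class. The 5 mesoderm markers summed to 16.3 and 10.0 CPM with DMSO and to 14.5 and 9.9 CPM with TSA, with 1 called higher and 1 lower. The 6 primitive endoderm markers summed to 13.8 and 16.4 CPM with DMSO and to 24.0 and 26.3 CPM with TSA. The 13 epithelial increases were 7 without DMSO replicate 2 and 8 without TSA replicate 1 or TSA replicate 2. Sox17, an endoderm factor, rose from 0.499 and 0.486 CPM to 2.44 and 4.14 CPM, and Pdgfra, a receptor of primitive endoderm and mesenchyme, from 1.78 and 2.19 CPM to 7.45 and 8.35 CPM. Krt5, a keratin of basal epithelium, rose from 0.143 and 0.405 CPM to 3.60 and 7.47 CPM, and Cldn4, a tight junction gene, from 254 and 185 CPM to 413 and 410 CPM. Per kilobase of exon, Sox17, Pdgfra and Krt5 reached 1.05, 1.17 and 2.53 CPM with TSA, where Pou5f1 had 283 CPM.

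Neural genes went both ways. Of 41 neural progenitor genes 23 were tested, with 9 higher and 5 lower, and of 70 neuronal and synaptic genes 63 were tested, with 19 higher and 9 lower. The share of neuronal and synaptic genes called higher, 30.2%, lies near the 27% of all genes, and the neural progenitor counts fell to 5 higher and 4 lower without DMSO replicate 2 and to 4 and 3 without TSA replicate 2. Pax6, a factor of the neural tube and eye, had 22.4 and 14.6 CPM with DMSO and 2.50 and 1.77 CPM with TSA, 8.67-fold lower (edgeR adjusted p = 0.00011). Tubb3 and Stmn2, cytoskeletal genes of young neurons, fell from 160 and 161 CPM to 81.9 and 65.4 CPM and from 225 and 204 CPM to 112 and 86.9 CPM. The 6 neuron markers summed to 404 and 389 CPM with DMSO and to 236 and 198 CPM with TSA. Some members of the neuronal list rose, with Slc17a7, the vesicular glutamate transporter, going from 2.35 and 2.75 CPM to 10.8 and 10.7 CPM, and Camk2a and Nrgn rising by 2.29 and 2.37 on the log2 scale. Syn2, a synaptic vesicle gene, was at 0 counts in both DMSO libraries and at 1.16 and 1.22 CPM with TSA, at least 5.21-fold higher. Voltage-gated ion channel genes had 34 higher and 2 lower of 72 tested and a median log2 fold change of 0.83, and 57 of the 72 had more than 3 counts in both DMSO libraries. Their shares, 47.2% and 2.78%, lie near the 46.9% and 5.07% of all genes in the lowest level class, whose median was 0.93. Cacna1s, the calcium channel of skeletal muscle, rose from 2.00 and 1.38 CPM to 12.9 and 24.7 CPM.

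Matrix and muscle genes were split as well. Of 43 tested collagen genes, 36 of them with more than 3 counts in both DMSO libraries, 27 were higher and 3 were lower, with a median log2 fold change of 1.19. Col22a1 rose from 7.35 and 5.59 CPM to 25.6 and 34.8 CPM, Col6a1 from 2.07 and 1.86 CPM to 8.61 and 9.64 CPM, and Col1a2, the fibrillar collagen of fibroblasts, from 11.3 and 18.1 CPM to 30.8 and 39.9 CPM. Contractile and mesenchymal genes had 18 higher and 9 lower of 42 (20 and 5 when scaled by total counts alone, 18 and 5 without TSA replicate 2). In contrast to Myh11, Acta2, the smooth muscle actin, fell from 72.8 and 37.1 CPM to 17.5 and 11.5 CPM, and the fibronectin gene Fn1 and the filament gene Vim fell by 0.81 and 0.71 on the log2 scale. The DMSO libraries differed here, with replicate 1 above replicate 2 in 33 of the 42 genes. Striated muscle genes had 11 higher and 5 lower of 34 (12 and 2 when scaled by total counts alone, 8 and 2 without TSA replicate 2), and Ttn, the giant sarcomere protein titin, fell from 260 and 181 CPM to 24.7 and 31.7 CPM (log2 -2.97, edgeR adjusted p = 1.4e-05), which sets nearly the whole fall in the summed striated muscle markers, from 271 and 191 CPM to 42.1 and 48.0 CPM. Of 39 Hox genes 15 passed the filter, 11 of them with more than 3 counts in both DMSO libraries, and 8 were higher. That count was 4 without DMSO replicate 2, without TSA replicate 1 and with DESeq2.

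Germline genes had more increases than decreases. Many of them carry methylated CpG-rich promoters in somatic cells. Of 53 listed genes 46 were tested, 45 of them with more than 3 counts in both DMSO libraries, and 25 were higher and 4 were lower, with a median log2 fold change of 0.98. The shares were 54.3% and 8.7%, against 27% and 25.9% of all tested genes. Tex15, needed for meiotic repair and piRNA-directed silencing, had 74.4 and 88.1 CPM with DMSO and 349 and 436 CPM with TSA. Taf7l, a germ cell subunit of the general transcription machinery, had 4.99 and 5.83 CPM with DMSO and 34.4 and 37.9 CPM with TSA. They rose by 4.83-fold and 6.67-fold without overlap (edgeR adjusted p = 2.3e-06 and 2.8e-06). The cohesin gene Stag3 and the piRNA pathway gene Mael rose by 1.51 and 1.59 on the log2 scale, while Syce2, of the synaptonemal complex, fell by 1.03. Replicate 2 was above replicate 1 in 41 of the 46 genes with DMSO and in 36 with TSA. Without DMSO replicate 1 the median was 0.59, with 18 higher and 6 lower.

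Imprinted genes had 16 higher and 11 lower of 40 tested, or 40% and 27.5%, against 27% and 25.9% of all tested genes. Next to Peg10, Igf2r, the maternally expressed receptor that clears Igf2, rose from 215 and 224 CPM to 442 and 441 CPM. Grb10, an adaptor that restrains growth (chromosome 11, 11930499 to 12037420, mm10), fell from 466 and 425 CPM to 137 and 115 CPM. The noncoding RNAs Rian and Meg3 of 1 imprinted cluster on chromosome 12 fell together, by 1.28 and 1.21 on the log2 scale. Interferon response genes had 17 higher and 11 lower of 46, or 37% and 23.9%. Nlrc5, an activator of antigen presentation genes, rose from 3.85 and 2.43 CPM to 16.1 and 13.3 CPM, and Usp18 from 0.357 and 0.243 CPM to 3.42 and 4.82 CPM. Ifitm3, a membrane protein that is also high in stem cells, fell from 32.7 and 33.3 CPM to 16.1 and 13.9 CPM.

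The genes of the inhibited enzymes moved little. Of 11 histone deacetylase genes, Hdac6 and Hdac11 were called higher and Hdac2, Hdac4 and Hdac10 lower, and all 11 log2 fold changes lay between -0.53 and 0.64. Hdac4 had 54.0 and 48.9 CPM with DMSO and 36.9 and 34.7 CPM with TSA (log2 -0.52, edgeR adjusted p = 0.002). The calls of Hdac2, Hdac6, Hdac10 and Hdac11 were each lost when a library was left out, with edgeR adjusted p of up to 0.18, 0.066, 0.13 and 0.19. Hdac2, a main nuclear deacetylase, had 188 and 218 CPM with DMSO and 164 and 171 CPM with TSA. For Hdac2 and Hdac10 the call was also lost when scaled by total counts alone.

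Among partners and opponents of the deacetylases decreases outnumbered increases. Over all tested genes 25.9% were lower, and in the highest level class 52.7%, with a median log2 fold change of -0.31. Of 40 corepressor subunit genes, 18 were lower and 5 were higher (12 and 6 when scaled by total counts alone). That is 45% lower, with a median of -0.26, which lies near the values of that class. Rest, which recruits deacetylases to neuronal genes (chromosome 5, 77265494 to 77283697, mm10), had 457 and 568 CPM with DMSO and 204 and 187 CPM with TSA. Its corepressor gene Rcor2 had 142 and 119 CPM with DMSO and 67.2 and 57.7 CPM with TSA. Both were lower in each TSA library (log2 -1.39 and -1.06, edgeR adjusted p = 1.5e-05 and 5.4e-05), as was Ncor1, the corepressor of nuclear receptors, by 1.00. Rbbp7, a histone-binding subunit shared by several complexes, rose from 387 and 386 CPM to 569 and 678 CPM. Of 17 acetyltransferase genes 10 were lower and 2 were higher (7 and 5 when scaled by total counts alone). That is 58.8% lower, with a median of -0.34, also near the highest level class. Kat2b fell from 97.6 and 127 CPM to 33.1 and 31.0 CPM, and Crebbp, Kat2a and Ep300 by 1.04, 0.92 and 0.48 on the log2 scale.

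Histone genes were mostly lower. Of 54 tested replication-dependent core histone genes, 34 were lower and 3 were higher (26 and 5 when scaled by total counts alone), with a median log2 fold change of -0.54. All 54 had more than 3 counts in both DMSO libraries. The 3 increases were Hist3h2ba (log2 0.45, not called without TSA replicate 1, edgeR adjusted p = 0.077) and the testis-specific Hist1h2ba and Hist1h2aa, which went from 35.7 and 57.4 CPM to 82.4 and 102 CPM and from 40.2 and 50.5 CPM to 81.5 and 92.8 CPM. All 8 tested linker histone genes were called, 5 lower and 3 higher. The somatic gene Hist1h1d fell from 734 and 693 CPM to 373 and 338 CPM, while the testis gene Hist1h1t rose from 8.35 ± 3.43 CPM to 26.3 ± 4.80 CPM (SD, n = 2) and H1fx from 7.21 and 7.13 CPM to 16.1 and 18.9 CPM. Polyadenylated and non-polyadenylated RNA were both kept by the ribosomal depletion, so histone RNAs without a poly(A) tail are counted. The 5 factors whose binding the series maps changed little. Gabpa was called lower (228 and 296 CPM against 182 and 193 CPM, log2 -0.48, edgeR adjusted p = 0.0067, and 0.066 when scaled by total counts alone). Nrf1, Yy1, Sp1 and Max had log2 fold changes of -0.25, -0.18, 0.02 and 0.12 and were not called. The edgeR adjusted p of Nrf1 was 0.051, and 0.016 without DMSO replicate 2. Scaled by total counts alone, Max and Sp1 were called higher, at 0.33 and 0.23, and Yy1 changed sign, at 0.02.

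Growth genes fell by small amounts and in large numbers. Over all tested genes 25.9% were lower, and in the highest of the 4 level classes 52.7%, with a median log2 fold change of -0.31. The lists were not matched for level. Of 53 ribosome biogenesis genes 42 were lower and the other 11 were not called (32 were lower when scaled by total counts alone), with a median log2 fold change of -0.59. Polr1a, the largest subunit of RNA polymerase I, had 494 and 421 CPM with DMSO and 234 and 223 CPM with TSA. Ubtf, its activator, had 308 and 292 CPM with DMSO and 165 and 154 CPM with TSA, and nucleolin (Ncl) had 807 and 917 CPM with DMSO and 487 and 466 CPM with TSA. These 3 genes fell by 1.00, 0.91 and 0.85 on the log2 scale with no overlap. Of 79 tested cytosolic ribosomal protein genes 55 were lower, but 25 when scaled by total counts alone and 34 without TSA replicate 2. Genes of this family have many processed copies that share reads with them. Myc, which drives ribosome production, fell from 24.3 and 21.6 CPM to 9.52 and 9.51 CPM.

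Cell cycle lists also held more decreases than increases. The lists of DNA replication genes, mitosis genes and cyclins with CDKs had 62%, 65.6% and 52.4% lower. All tested genes had 25.9% lower and the highest level class 52.7%. The list medians of -0.39, -0.37 and -0.30 on the log2 scale lie near the -0.31 of that class. Of 50 DNA replication genes 31 were lower and 2 were higher (24 and 5 when scaled by total counts alone), and of 32 mitosis genes 21 were lower and 1 was higher (13 and 3). The replicative helicase gene Mcm2 went from 541 and 501 CPM to 312 and 272 CPM, Gins2 from 65.9 and 59.6 CPM to 33.2 and 26.4 CPM, and the mitotic kinase gene Plk1 from 101 and 103 CPM to 56.3 and 52.3 CPM. Each lay lower in both TSA libraries. Pttg1, the securin that guards sister chromatids, was the only increase among mitosis genes (log2 1.01, edgeR adjusted p = 7.9e-05). Among cyclins and CDKs 11 of 21 were lower and 3 higher (7 and 5 when scaled by total counts alone). Cyclin D1 (Ccnd1) went from 314 and 262 CPM to 124 and 66.8 CPM, and its partner genes Cdk6 and Cdk4 fell by 1.46 and 0.83 on the log2 scale. CDK inhibitors were divided. Cdkn2a and Cdkn2c rose by 1.19 and 1.99, while Cdkn1b, which encodes p27, fell from 49.2 and 60.3 CPM to 17.7 and 12.4 CPM. Among p53 targets, Mdm2 rose from 177 and 155 CPM to 260 and 332 CPM and Pmaip1, the death gene also called Noxa, from 55.9 and 42.5 CPM to 130 and 118 CPM, while Trp53 itself fell from 268 and 241 CPM to 152 and 143 CPM. In the list of CDK inhibitors and p53 targets 14 of 32 were higher and 6 lower (17 and 2 when scaled by total counts alone).

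Glycolysis genes had 15 lower and 3 higher of 24 (11 and 4 when scaled by total counts alone), with a median log2 fold change of -0.54. That is 62.5% lower, against 25.9% of all tested genes and 52.7% of the highest level class, whose median was -0.31. Ldha, lactate dehydrogenase, fell from 771 and 874 CPM to 404 and 383 CPM, Pfkl, phosphofructokinase, from 416 and 448 CPM to 214 and 195 CPM, and Pkm, pyruvate kinase, from 2273 and 2285 CPM to 1387 and 1266 CPM. All 3 showed a drop of similar size in both TSA libraries. Genes of the amino acid stress response under Atf4 had 15 lower and 2 higher of 25 (11 and 4 when scaled by total counts alone), with a median log2 fold change of -0.59. That is 60% lower, to be read against the same shares. Atf4 fell from 234 and 354 CPM to 106 and 104 CPM, and its target Chac1, which degrades glutathione, from 16.8 and 29.2 CPM to 2.62 and 2.11 CPM. Here the DMSO libraries differed, with replicate 2 above replicate 1 in 23 of the 25 genes and a median log2 ratio of 0.55. Without DMSO replicate 2 the median fold change was -0.38 on the log2 scale, with 10 lower. Metallothionein and redox genes had 9 higher and 11 lower of 29 (13 and 8 when scaled by total counts alone, 5 and 8 without TSA replicate 2). The shares of that list, 31% and 37.9%, compare with 27% and 25.9% of all tested genes, and the share higher lies near theirs. The 3 metallothionein genes of the list, whose products bind zinc and other metals, rose. Mt1 had 69.3 and 66.8 CPM with DMSO and 269 and 313 CPM with TSA, and Mt2 and Mt3 rose by 1.48 and 1.55 on the log2 scale. The stress-induced chaperone genes Hspa1a and Hspa1b rose from 2.85 and 3.08 CPM to 17.0 and 25.5 CPM and from 8.06 and 7.94 CPM to 24.2 and 38.6 CPM. The mitochondrial chaperone gene Hspd1 fell in contrast, from 601 and 663 CPM to 344 and 341 CPM.

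The remaining decreases among the 10 largest at 10 CPM or more were in genes of varied function. Upp1, uridine phosphorylase, had 214 and 297 CPM with DMSO and 22.6 and 25.3 CPM with TSA. Mcf2, an exchange factor of small GTPases, had 49.0 and 65.5 CPM with DMSO and 5.07 and 5.50 CPM with TSA. Both were more than 10-fold lower (log2 -3.41 and -3.44, edgeR adjusted p = 2.1e-06 for both). A lack of overlap was a condition of this ranking. Trim67, a ubiquitin ligase gene of neurons, and Slc5a11, an inositol transporter gene, fell, with log2 fold changes of -3.87 and -3.50.

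The wild type response was set against that of TKO cells to see where it differed. The 2 responses share no libraries. Of the 4266 genes higher in wild type cells, 4137 had a fold change above 1 in TKO cells and 3470 were called there, and of the 4092 lower genes 3947 had a fold change below 1 and 3348 were called. In the opposite direction, 14 of the higher and 33 of the lower genes were called in TKO cells. The share of all tested genes called in TKO cells is not given here, so these overlaps have no baseline. A difference between the 2 responses was called for 213 of 15822 genes, 1.35% of those tested, by the interaction term of edgeR's quasi-likelihood test. The TSA effect was higher in wild type cells for 74 of them and lower for 139. This number moved strongly with single libraries, and was 53 without wild type TSA replicate 1, 118 without TSA replicate 2, 72 without DMSO replicate 1 and 410 without DMSO replicate 2.

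Among the genes named, Grb10 had the lowest adjusted p for this difference. It had 132 and 121 CPM in TKO cells with DMSO and 113 and 121 CPM with TSA, so the drop seen in wild type cells ended near the level that TKO cells had under both treatments. The TSA effect was lower in wild type cells by 1.70 on the log2 scale (SE 0.15, edgeR adjusted p = 0.0014). The genes Bcl2l11 and Pmaip1, which promote cell death, rose less in wild type than in TKO cells. Bcl2l11, which encodes Bim, went from 61.0 and 53.6 CPM to 97.7 and 98.4 CPM in wild type cells and from 36.9 and 34.4 CPM to 133 and 132 CPM in TKO cells. Pmaip1 went from 21.3 and 20.3 CPM to 129 and 111 CPM in TKO cells. The differences were -1.12 for Bcl2l11 and -1.19 for Pmaip1 on the log2 scale (edgeR adjusted p = 0.0061 and 0.025). Thbs1, encoding thrombospondin, had 272 and 125 CPM with DMSO and 236 and 192 CPM with TSA in wild type cells, which overlap, while it went from 15.2 and 8.66 CPM to 136 and 159 CPM in TKO cells. Without DMSO replicate 1 its wild type increase was called (log2 0.78, edgeR adjusted p = 0.017), and without DMSO replicate 2 the value was -0.35. The difference between the responses was -3.51 on the log2 scale (edgeR adjusted p = 0.0064). Gap43, a growth cone gene, fell from 25.7 and 29.9 CPM to 18.7 and 15.6 CPM in wild type cells and from 11.0 and 9.09 CPM to 1.08 and 1.00 CPM in TKO cells (difference 2.57, edgeR adjusted p = 0.0052). These 5 differences were called in every alternative fit that was run.

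**Figure D5:**
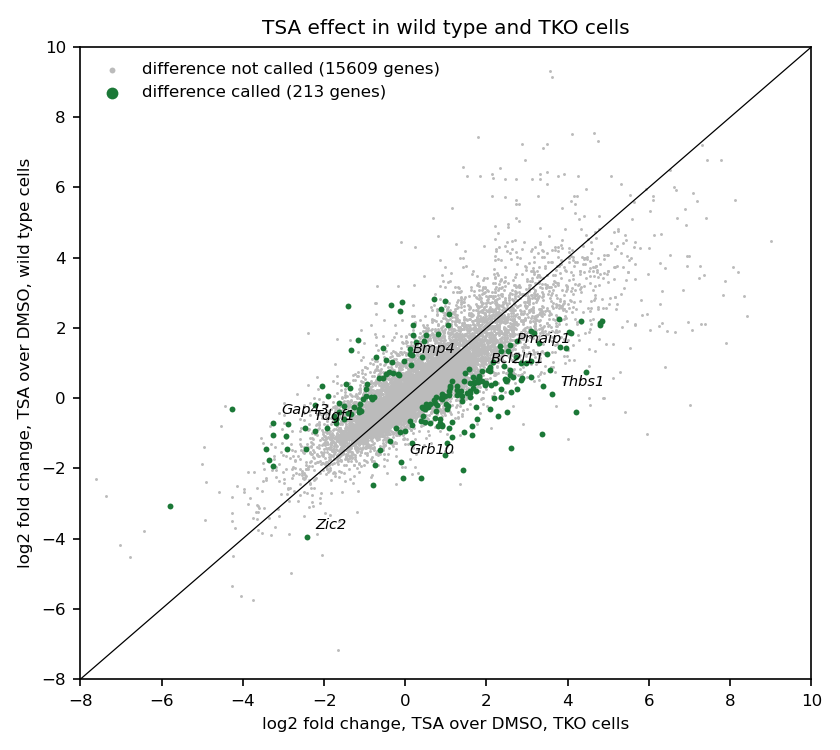
Log2 fold change of TSA over DMSO in wild type cells (vertical) against that in TKO cells (horizontal) for each of the 15822 tested genes, with the line of equal effects. Green points are the 213 genes whose difference between the 2 responses was called. Most genes lie near the line, Grb10 and Zic2 lie under it and Gap43, Tdgf1 and Bmp4 above it.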

How the data were processed

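RNA-seq was measured in 8 libraries, 2 for each of wild type and TKO cells with TSA or DMSO, and libraries were grouped by their labels. The authors deposited raw read counts per gene with exon coordinates and lengths. Per the submitters' processing notes, TopHat2 2.0.13, featureCounts 1.4.5-p1, edgeR 3.22.3 and the build mm10 were used, with no settings given. Annotation, strand setting and handling of reads that map more than once are not given in the sources used here. Per the labels' protocols, DNase-treated RNA went through ribosomal depletion into a directional library kit.

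Of 23420 genes, 15822 passed filterByExpr in edgeR 4.0.16 (R 4.3.3). After TMM scaling, the quasi-likelihood test was fitted to all 8 libraries together, with 4 group means and 4 residual degrees of freedom. Tests were two-sided, adjusted by the Benjamini-Hochberg method over all genes tested, and called below 0.05. For 1 gene, exact permutation of 2 against 2 libraries gives at best p = 0.3333. The biological coefficient of variation was 10.27%. No pair of replicates agreed within sampling noise (chi-square per degree of freedom 12.18 with DMSO and 6.59 with TSA in wild type cells), so each library counts once. Total counts per library put 3 counts, used as the floor of detection, at 0.183 to 0.243 CPM, which covers counting error only. Counts were simulated from these libraries with 200 genes changed, and 15441 genes passed the filter again. Of the changed genes among them 81.31% were recovered, and 5.29% of calls were false. Far fewer genes were changed there than were called in the data, so the simulation cannot speak to errors from the scaling.

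Gene lists are described by counts and medians beside those of all tested genes. Members and lists were chosen with earlier results of these data known. Genes were named by rule: the 10 largest increases and decreases among called genes with 10 CPM or more in the higher group and no overlap, the 5 largest changes each way in CPM, up to 5 of the most changed genes per list with those that define a list by role, the deacetylase genes and the factors mapped in the series. Of 193 genes named, 138 met these rankings. The other 55 were list members, chosen after their values were seen. RefSeq promoters could be matched for 76.6% of tested genes, too few to compare base composition or motifs between called groups, so that comparison is void and none is given. Some results are not reported here.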

Additional observations from a re-analysis of the deposited data

Results flagged for a closer look

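For 8 of the genes named, edgeR's interaction test found a TSA effect that differed between wild type and TKO cells. On the log2 scale, wild type minus TKO, the difference was -1.70 for Grb10, -1.12 for Bcl2l11, -1.19 for Pmaip1, -3.51 for Thbs1 and 2.57 for Gap43, whose values are given above.

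Zic2 was at 41.9 and 43.1 CPM in TKO cells with DMSO and at 8.38 and 7.47 CPM with TSA. It fell in both genotypes, and by more in wild type cells, with a difference of -1.53 (edgeR adjusted p = 0.018, and 0.063 without wild type TSA replicate 1). Tdgf1 was at 719 and 685 CPM in TKO cells with DMSO and at 161 and 90.7 CPM with TSA. It fell by less in wild type cells, with a difference of 1.63 (edgeR adjusted p = 0.028, and 0.073 without wild type DMSO replicate 1 or 0.054 without TSA replicate 1). Bmp4 was at 20.6 ± 2.14 CPM in TKO cells with DMSO and at 20.2 ± 2.27 CPM with TSA (SD, n = 2). The groups overlap there, and the difference was 1.08 (edgeR adjusted p = 0.033, and 0.10 without wild type TSA replicate 1 or 0.051 without TSA replicate 2). The cause of these differences was not tested.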

How the results depend on the processing

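The main limit is the scaling, since the composition factors differ by treatment. No called gene was called in the opposite direction under any alternative run. Scaled by total counts alone, 2433 genes were lower, 483 of them by 2-fold or more, and 70.5% of calls were higher, against 51%. With upper quartile scaling 65.8% were higher and the median of all tested genes was 0.16. The other counts of wild type calls over all genes stayed within 1.5 times those of the report under every alternative run, while several list counts moved further, as given with them. Leaving out a library gave 5780 to 7340 called genes, the lone library of its group being assumed to vary like the others.

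The number of genes whose TSA effect differed between wild type and TKO cells was less stable. It was 633 with a replicate block, 488 with no filter on low counts and 401 with DESeq2 1.42.0, and 53 to 410 when a wild type library was left out. The cause was not tested. Replicate numbers are shared across groups, but 2 numbers do not establish a pairing. Deviations of same-numbered wild type libraries from their group means correlated at 0.30 across genes. With the replicate block, 4734 genes were higher and 4522 lower.

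Of 34 list medians followed through the alternative runs, that of the Wnt pathway changed sign. It lay between -0.027 and 0.175 when a library was left out. Medians of some described lists outside those 34 also changed sign. Scaled by total counts alone, FGF and ERK genes went from -0.141 to 0.062 and Hedgehog genes from -0.02 to 0.183. Deacetylase, polycomb and LIF pathway genes went from -0.005 to 0.199, -0.137 to 0.068 and -0.107 to 0.095. Without wild type DMSO replicate 2, metallothionein and redox genes went from 0.009 to -0.079. Among 193 named genes 3 changed sign, none of them called in the report: Sp1 (-0.055 to 0.092 when a library was left out), Thbs1 (-0.352 to 0.778 likewise) and Yy1 (0.025 when scaled by total counts alone). The call was lost under 1 or more alternatives for 10 named genes and gained for 6.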

Other observations

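Regulators of DNA and histone modification changed beyond the lists described. Tet1, which oxidises methylated cytosine, had 709 and 755 CPM with DMSO and 185 and 137 CPM with TSA (log2 -2.18, edgeR adjusted p = 1.8e-05), and Tet2 had 202 and 262 CPM with DMSO and 85.1 and 67.0 CPM with TSA. Both were lower in each TSA library. Of 32 polycomb subunit genes 4 were higher and 13 lower, but 7 and 9 when scaled by total counts alone. The shares were 12.5% and 40.6%, against 27% and 25.9% of all tested genes and 7.86% and 52.7% of the highest level class. Within the polycomb list, Phc1 fell from 390 and 403 CPM to 149 and 99.8 CPM while its paralogue Phc2 rose from 28.0 and 23.1 CPM to 68.7 and 79.1 CPM. Ezh2, the methyltransferase of the complex, fell by 0.49 on the log2 scale and its partner Suz12 rose by 0.63.

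Genes of immune cells were low but mostly rose where called, with 11 higher and 3 lower of 22 tested. The shares were 50% and 13.6%, against 27% and 25.9% of all tested genes and 46.9% and 5.07% of the lowest level class. Cd74, the invariant chain of antigen presentation, had 3.64 and 3.81 CPM with DMSO and 23.3 and 30.3 CPM with TSA. Ptprc, the leukocyte antigen CD45, went from 0.713 and 0.324 CPM to 3.48 and 4.48 CPM. The lysosomal genes Gusb and Ctsh went in opposite directions, Gusb from 38.3 and 45.9 CPM to 11.5 and 9.24 CPM and Ctsh from 1.07 and 0.972 CPM to 7.39 and 7.88 CPM.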
